A study of Mus musculus with 6 samples.

Results

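The genes described here encode carriers that move amino acids and neurotransmitters across membranes. They were taken by gene symbol from the expression table of the neonatal mouse retina, as the members of the Slc1a, Slc3a, Slc6a, Slc7a, Slc17a, Slc36a and Slc38a families that a probe set on the array was paired with. The rule found 73 probe sets of 47 genes among 22626 probe sets that are not controls, of which 20380 were paired with a single symbol and together covered 12393 genes. There were 6 genes of Slc1a, 2 of Slc3a, 15 of Slc6a, 13 of Slc7a, 5 of Slc17a and 6 of Slc38a. No probe set was paired with an Slc36a symbol, so that family was not analysed here, and neither were Slc1a7, Slc17a7 and Slc17a8.

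The arrays, Affymetrix mouse expression arrays with 1 mouse on each, measured the retinas of 3 wildtype mice and 3 mice of the Nhlh2 knockout, taken at postnatal day 4 (P4). Nhlh2 encodes a basic helix-loop-helix transcription factor of developing neurons. Mice of both groups were of a mixed C57/129 background, and a wildtype and a knockout mouse with the same replicate number were littermates. The knockout allele is not given in the sources used here, and no probe set was paired with Nhlh2, so the genotype could not be checked from its own transcript. The whole retina was extracted, so that fewer cells of a type and less RNA per cell cannot be told apart.

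Neurotransmitters are cleared from the space around a synapse by transporters in the plasma membrane and loaded into vesicles by another set of carriers. In the retina, photoreceptors, bipolar cells and ganglion cells release glutamate, while amacrine and horizontal cells use GABA or glycine. Müller glia take up glutamate through the Slc1a family, turn it into glutamine and return the glutamine through Slc38a carriers. Slc6a carriers are driven by sodium and chloride and handle GABA, glycine, monoamines, taurine and creatine. The Slc7a light chains exchange amino acids, several of them joined to a heavy chain of the Slc3a family, and Slc17a holds the vesicular glutamate transporters.

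The array of knockout 2 stood apart from the other 5. Its ratio of signals from the 3′ and 5′ ends of Actb was 274, against 1.38 to 1.56 on the others, and its correlation with them was between 0.484 and 0.552, against 0.928 or more among the rest. It was therefore kept out of the tests and is given separately. The retina of wildtype 1 carried lens transcripts, with a summed normalised signal of 4 lens markers of 4706 against 22.2 to 152 on the other 5 arrays. Wildtype 3 and knockout 3, the littermates of litter 3, lay together on a first principal component that held 66.1% of the variance among 5 arrays, away from wildtype 1, wildtype 2 and knockout 1. Markers of photoreceptors were above the array median in all 3 wildtype arrays for 5 of 5 genes measured, as were 5 of 5 markers of progenitors and Müller glia and 5 of 6 of amacrine cells, while 0 of 3 markers of horizontal cells and 0 of 3 of astrocytes were.

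A gene was counted as expressed on an array when its signal was above the median of that array, which lay at 68.0 on the quantile-normalised scale used below, and each gene was read from its probe set with the highest mean. Of the 47 transporter genes, 16 were expressed in all 3 wildtype arrays, 4 in 1 or 2 of them and 27 in none. This was a share of 34.0%, against 51.3% of the 12393 genes on the array. Of the 16, Slc1a1, Slc1a4, Slc6a6, Slc7a4, Slc17a6 and Slc38a10 also had other probe sets that were not expressed in all 3. By family, 3 of 6 Slc1a genes, 1 of 2 Slc3a genes, 4 of 15 Slc6a genes, 3 of 13 Slc7a genes, 1 of 5 Slc17a genes and 4 of 6 Slc38a genes were expressed in all 3. The signals of different probe sets depend on their probes, so the values below compare arrays and not genes.

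**Figure D1:**
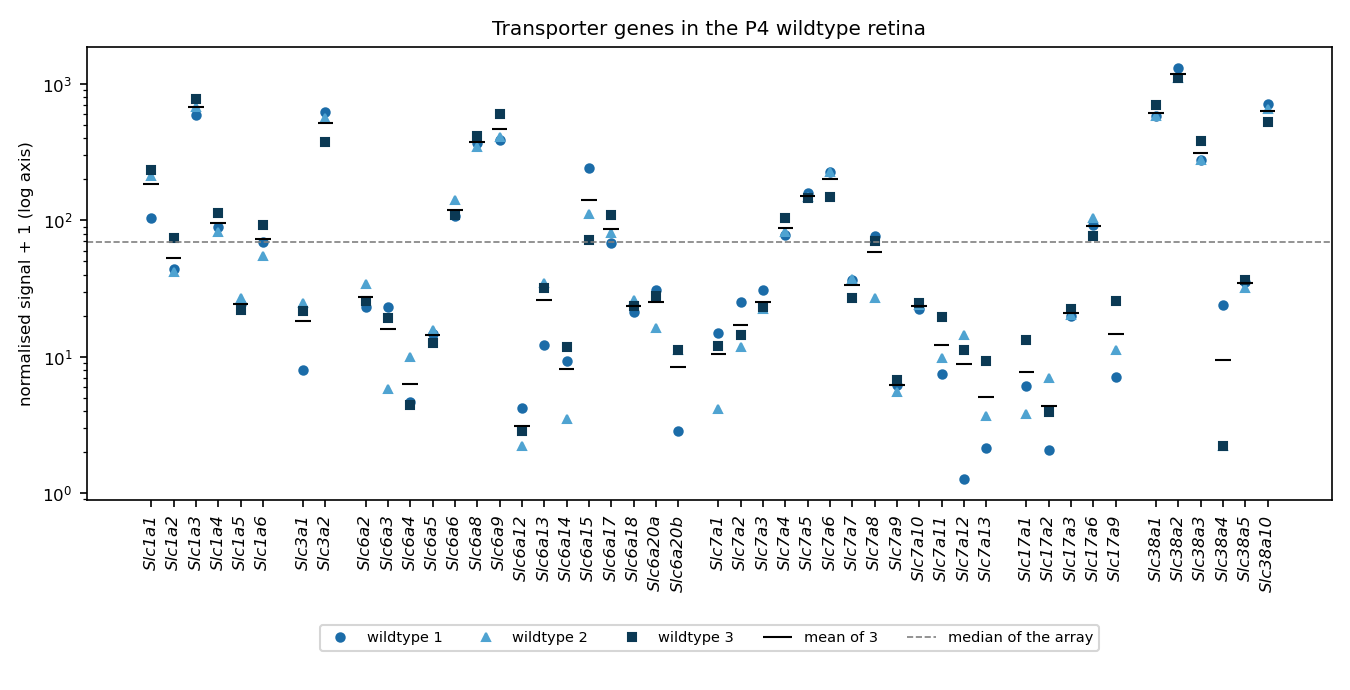
Normalised signal plus 1 (log axis) of the 47 transporter genes on the 3 wildtype arrays at P4, grouped by family, with a bar at the mean of the 3 arrays and a dashed line at the array median. Slc38a has 4 of its 6 genes above the line on every wildtype array, while 10 of 15 Slc6a genes and 9 of 13 Slc7a genes lie below it on every one.

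Among the plasma membrane glutamate transporters, Slc1a3, the glial carrier GLAST, had normalised signals of 589, 677 and 772 in wildtype 1, 2 and 3 (mean 679 ± 91.7, SD, n = 3). Slc1a1, the neuronal carrier EAAC1, read 103, 212 and 235 (183 ± 70.6, SD, n = 3), so that wildtype 1 was below the other two. Slc1a2, which encodes GLT-1, was at 42.9, 40.6 and 73.0 and passed the median on wildtype 3 only. Slc1a6, a glutamate carrier best known from Purkinje cells, gave 68.3, 53.9 and 91.7, with wildtype 2 below the median. The neutral amino acid exchanger Slc1a4 was expressed on each array, at 88.2, 81.3 and 113 (94.1 ± 16.6, SD, n = 3). Its relative Slc1a5 stayed between 21.0 and 26.1, below the median.

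Slc17a6, the vesicular glutamate transporter VGLUT2, was the expressed member of its family, at 91.0, 104 and 75.5 in the 3 wildtype arrays (90.02 ± 14.0, SD, n = 3). These values are of 1428379_at. Its other probe set, 1418610_at, read 60.9, 79.1 and 27.2 and passed the median on wildtype 2 only. Slc17a1, Slc17a2, Slc17a3 and the vesicular nucleotide carrier Slc17a9 lay between 1.05 and 24.6.

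The glycine transporter of glia and glycinergic amacrine cells, Slc6a9 (GLYT1), had signals of 390.1, 409.6 and 598 (466 ± 115, SD, n = 3). Slc6a5, the neuronal glycine carrier GLYT2, was between 11.7 and 14.6. The GABA and betaine carriers Slc6a12 and Slc6a13 were also below the median, with Slc6a13 between 11.2 and 33.5 and Slc6a12 between 1.23 and 3.20. The same held for the carriers of noradrenaline (Slc6a2), dopamine (Slc6a3) and serotonin (Slc6a4), whose highest wildtype signals were 32.9, 22.3 and 8.85. A signal below the median does not show that a transcript was absent, since the deposited table gives no detection calls.

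Carriers of osmolytes and energy substrates in Slc6a were expressed. The taurine transporter Slc6a6 read 107, 139 and 109 in wildtype 1, 2 and 3 (118 ± 18.0, SD, n = 3), and the creatine transporter Slc6a8 read 365, 343 and 417 (375 ± 38.3, SD, n = 3). The values of Slc6a6 are of 1421346_a_at. Its other probe sets, 1420148_at and 1449751_at, were below the median on each wildtype array. Slc6a15, a neuronal carrier of branched-chain amino acids and proline, was at 242 in wildtype 1, 111 in wildtype 2 and 70.3 in wildtype 3 (141 ± 89.7, SD, n = 3). Its SD of 0.89 on the log2 scale was the highest of the 18 transporter genes tested, whose median was 0.24 against 0.21 over all 6820 genes tested. The high array for this gene, wildtype 1, is the one with lens transcripts, and their part in the value was not tested. Slc6a17, a carrier of synaptic vesicles, was at 67.5, 79.5 and 108, just under the median on wildtype 1. Slc6a14, Slc6a18, Slc6a20a and Slc6a20b, carriers of neutral amino acids or proline, were between 1.86 and 29.6 on the wildtype arrays.

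The heavy chain Slc3a2 (4F2hc, CD98) had signals of 619.6, 563 and 375 (519 ± 128, SD, n = 3), with wildtype 3 below the other two. Its partners Slc7a5 and Slc7a6 were expressed as well. Slc7a5 (LAT1), which exchanges large neutral amino acids, had the smallest SD of the tested transporters on the log2 scale, 0.063, at 157, 148 and 144 (149.5 ± 6.64, SD, n = 3). Slc7a6, an exchanger of cationic for neutral amino acids, was at 225, 224 and 146, again with the low value in wildtype 3. The other light chain near the median, Slc7a8 (LAT2), gave 76.3, 25.7 and 69.9. Slc3a1, the heavy chain best known from kidney, and its partner Slc7a9 were between 4.53 and 23.7. Slc7a7, Slc7a10, Slc7a11, the cystine and glutamate exchanger xCT, Slc7a12 and Slc7a13 were below the median on each wildtype array, with Slc7a11 at 6.40, 8.70 and 18.4. Of the cationic amino acid transporters, Slc7a1, Slc7a2 and Slc7a3 stayed at 29.6 or lower. Slc7a4, a relative of these, was expressed at 76.4, 81.3 and 103 (86.8 ± 14.0, SD, n = 3) by 1426068_at. Its other probe sets were below the median on each wildtype array, 1426069_s_at at 35.8 to 53.0 and 1436776_x_at at 7.82 to 24.8.

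In the 4 tested glutamine carriers of Slc38a, the SD between wildtype arrays was 0.15 to 0.27 on the log2 scale, near the median of 0.21 over all genes tested. Slc38a2 (SNAT2), a carrier that rises when amino acids are scarce, read 1317, 1106 and 1101 (1175 ± 123, SD, n = 3). The neuronal carrier Slc38a1 (SNAT1) was at 577, 577 and 694 (616 ± 67.4, SD, n = 3). Slc38a3 (SNAT3), which lets glutamine out of glia, was at 274, 277 and 382 (311 ± 61.7, SD, n = 3), and Slc38a10 was at 713, 659 and 521 (631 ± 99.2, SD, n = 3). Wildtype 3 was the highest of the 3 arrays for Slc38a1 and Slc38a3 and the lowest for Slc38a10. Slc38a4 was at 1.21 to 22.8 and Slc38a5 at 30.7 to 35.2, both below the median.

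The knockout was compared with wildtype in a linear model on log2 values, with 3 wildtype arrays against knockout 1 and knockout 3, fitted over the 11313 probe sets whose mean was above the median. None of these passed an adjusted p of 0.05 in limma with Benjamini-Hochberg adjustment, so 0% of the probe sets tested were called higher and 0% lower, and 93 had an unadjusted p under 0.05. Of the transporters, 27 probe sets of 18 genes were tested, 0 were called and 0 had an unadjusted p under 0.05. Every adjusted p of the 18 genes was 0.999953. The median standard error of the 18 genes was 0.25 on the log2 scale, so the intervals below leave room for changes of moderate size, and the number of arrays limits the precision. This fit had no litter term, so differences between litters were part of its error. With litter as a block on the same 5 arrays, the median standard error was 0.19 and 0 probe sets were called. The lowest unadjusted p of the 18 genes was then 0.038 in limma, for Slc1a4 at a log2 difference of -0.54. Without knockout 2, wildtype 2 had no littermate in the block fit, so its estimates rest on litters 1 and 3 alone. They equal those of the fit without wildtype 2, and the smaller standard error is no gain from all 5 arrays.

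Over the 18 genes the log2 difference, knockout minus wildtype, ran from -0.44 to 0.30 with a median of -0.05, with 8 genes higher and 10 lower. The median over all 6820 genes tested was 0.02, with 3717 higher. On the deposited signals without scaling, 0 of the 18 genes were higher, with a median of -0.33 against -0.26 over all genes. Among the families with more than 1 gene tested, 2 of 4 Slc1a genes, 2 of 5 Slc6a genes, 1 of 3 Slc7a genes and 2 of 4 Slc38a genes were higher. Slc3a2 was lower, at -0.09, and Slc17a6 higher, at 0.07.

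Slc1a4 had the most negative estimate. Its normalised signal was 75.2 in knockout 1 and 61.9 in knockout 3, both below the 81.3 to 113 of the wildtype arrays, and the log2 difference was -0.44 with a 95% interval from -0.97 to 0.08 (unadjusted p of 0.083 in limma). These values are of 1456003_a_at. The gene's other probe sets were below the median and not tested, with 1423549_at at 42.0 and 38.8 in knockout 1 and 3 against 4.98 to 36.6 in wildtype, the opposite direction, and 1423550_at at 43.4 and 15.5 against 17.5 to 39.7. Slc38a2 was at 1018 and 915 in knockout 1 and 3, under the lowest wildtype value of 1101, a log2 difference of -0.28 with an interval from -0.72 to 0.16. For Slc7a4 the knockout values were 74.0 and 62.5 against 76.4 or more in wildtype, a difference of -0.34 with an interval from -0.83 to 0.16. The difference was -0.21 without wildtype 3 or without knockout 3. Its untested probe sets overlapped wildtype, with 1426069_s_at at 45.6 and 37.3 against 35.8 to 53.0 and 1436776_x_at at 16.5 and 7.14 against 7.82 to 24.8. Slc1a4, Slc38a2 and Slc7a4, 3 genes of 18, lay below every wildtype array on both knockout arrays by the probe set used, and 0 lay above. Among all genes tested 5.57% lay below and 6.42% above in the same way.

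The taurine transporter Slc6a6 gave 131 in knockout 1, within the wildtype range, and 63.9 in knockout 3, below it, for a log2 difference of -0.36 with an interval from -1.15 to 0.43. Without knockout 3 the estimate was 0.16, so its sign came from that array. GLYT1 (Slc6a9) was at 349.7 and 421 against 390.1 to 598, a difference of -0.25 with an interval from -0.85 to 0.34. This difference was -0.06 without wildtype 3 and -0.12 without knockout 1. Its other tested probe set, 1431812_a_at, gave -0.38 with an interval from -0.91 to 0.14, with 131 in knockout 1 and 108 in knockout 3 against 127 to 176 in wildtype. The summed signal of 6 amacrine markers was 3313 and 3537 in knockout 1 and 3 and 3636 to 3789 in wildtype. Of the 6, 5 were expressed in all 3 wildtype arrays, none was at 0 and 0 were called. Pax6 was the largest part of the sum, at 1520 to 1857 in wildtype. Among the 5 markers tested, 1 was higher in knockout (Tfap2a, 0.17) and 4 were lower. The part of amacrine cells in the Slc6a9 value was not tested.

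On the positive side, Slc1a6 read 78.9 and 93.1 in knockout 1 and 3 against 53.9 to 91.7, a log2 difference of 0.30 with an interval from -0.33 to 0.92, which was 0.11 without wildtype 2, 0.18 without knockout 3 and 0.49 without wildtype 3. The creatine transporter Slc6a8 was at 353 and 529, a difference of 0.21 with an interval from -0.35 to 0.77. Slc7a5 was at 119 in knockout 1, below all wildtype arrays, and at 222 in knockout 3, above them all, and its estimate of 0.12 had an interval from -0.56 to 0.80. Slc1a1 was at 149 and 239.9, a difference of 0.14 with an interval from -0.85 to 1.12, and Slc38a10 was at 706 and 647, a difference of 0.11 with an interval from -0.38 to 0.60. In none of these 5 genes did both knockout arrays lie on one side of the wildtype range. Without knockout 3 the estimates of Slc6a8, Slc7a5 and Slc1a1 were -0.08, -0.32 and -0.21. Without wildtype 1 that of Slc1a1 was -0.24, and without wildtype 3 that of Slc38a10 was -0.02.

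For the other tested genes the estimates were between -0.30 and 0.07. GLAST (Slc1a3) was at 503 and 705 in knockout 1 and 3 (log2 difference -0.18, interval from -0.73 to 0.37), and VGLUT2 (Slc17a6) was at 128 and 69.0 against 75.5 to 104. The summed signal of 5 progenitor and Müller glia markers was 4631 to 5691 in wildtype and 5404 and 5934 in knockout 1 and 3, with none of the 5 at 0. The remaining 29 genes were not tested because their mean was below the median. Among these, Slc38a5 was at 13.2 and 17.7 in knockout 1 and 3 against 30.7 to 35.2, and Slc1a5 at 38.8 and 30.6 against 21.0 to 26.1. Slc6a18, Slc7a2 and Slc17a3 also lay below every wildtype array on both knockout arrays, and Slc7a9 and Slc7a10 above. For Slc7a2 this was 1422648_at, and its other probe sets, 1426008_a_at and 1450703_at, overlapped wildtype. All of these signals were below the array median, and the share over all untested genes was not counted, so no change is read from them.

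**Figure D2:**
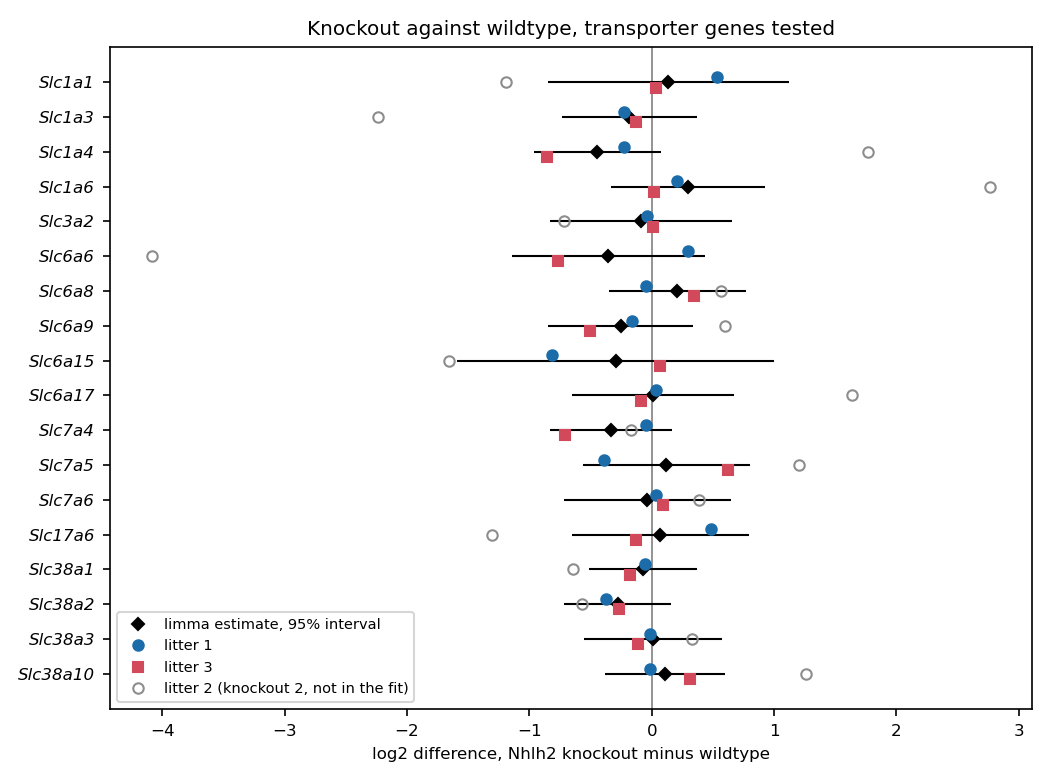
Log2 difference of normalised signal, knockout minus wildtype, for the 18 transporter genes tested. Black diamonds give the limma estimate from 5 arrays with its 95% interval, filled symbols the differences within litters 1 and 3, and open circles litter 2, whose knockout 2 array was not in the fit. Every interval includes 0, and the open circles lie farthest from 0 in 17 of 18 genes.

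Since the same number marked littermates, the difference was also taken within each pair. In litter 1, 6 of 18 transporter genes were higher in the knockout mouse, with a median difference of -0.04, and in litter 3, 8 of 18 with a median of -0.10. The typical size of a difference, the median without regard to sign, was 0.18 in litter 1 and 0.15 in litter 3, against 0.13 and 0.21 over all genes tested. The sign was shared by litters 1 and 3 in 10 of the 18 genes, 3 of them higher in both and 7 lower in both, where 48.9% of all genes tested had the same sign. The difference of Slc38a2 was -0.37 in litter 1 and -0.27 in litter 3. That of Slc1a4 was -0.23 and -0.86, and that of Slc6a9 was -0.16 and -0.50. The other tested probe set of Slc6a9, 1431812_a_at, gave 0.04 in litter 1 and -0.62 in litter 3. The untested probe sets of Slc1a4 gave 0.19 and 2.73 (1423549_at) and 0.13 and -0.17 (1423550_at). Slc7a5 turned, from -0.39 in litter 1 to 0.62 in litter 3, and Slc6a6 turned the other way, from 0.29 to -0.76.

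In litter 2, which holds the knockout 2 array, the typical difference was 1.20 for the transporters and 1.21 for all genes tested, about the same for both and several times that of the other litters. Slc6a6 was at 7.26 in knockout 2, where the other 5 arrays read 63.9 to 139, and Slc1a3 at 143 where they read 503 to 772. Of the 16 genes expressed in every wildtype array, 3 were below the median in knockout 2 (Slc6a6, Slc6a15 and Slc17a6). Of the 27 expressed in none, 8 were above it, among them Slc17a9 at 246 and Slc38a5 at 157. The same array had the Actb 3′ to 5′ ratio of 274, and the part of that ratio in these values was not tested.

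The differences between litters were next compared between genotypes, a comparison chosen after the values were seen. Litter 3 was above litter 1 by more than 0.5 on the log2 scale in wildtype and in knockout for 3 of 27 transporter probe sets, against 7.10% of all probe sets tested, and below by more than 0.5 in both for 5 of 27, against 7.66%. The shares were 11.1% and 18.5%. Those above were of Slc1a1, Slc6a17 and Slc38a10, and those below of Slc1a3, Slc3a2, Slc6a15, Slc7a6 and Slc38a10. For Slc3a2, wildtype 3 and knockout 3 read 375 and 378, against 563 to 619.6 on wildtype 1, wildtype 2 and knockout 1. For Slc7a6, 1433467_at read 146 and 156 in litter 3 against 224 to 231 on the same 3 arrays, also without overlap. Its other tested probe set, 1460541_at, read 146 and 167 against 147 to 162, which overlap. For Slc1a1, 1448299_at read 212 in wildtype 2, of litter 2, nearer to the 235 and 239.9 of litter 3 than to the 103 of wildtype 1. Its other tested probe set, 1425415_a_at, gave a litter 3 minus litter 1 difference of 0.20 in wildtype and -0.94 in knockout, opposite in sign to 1448299_at in the knockout.

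**Figure D3:**
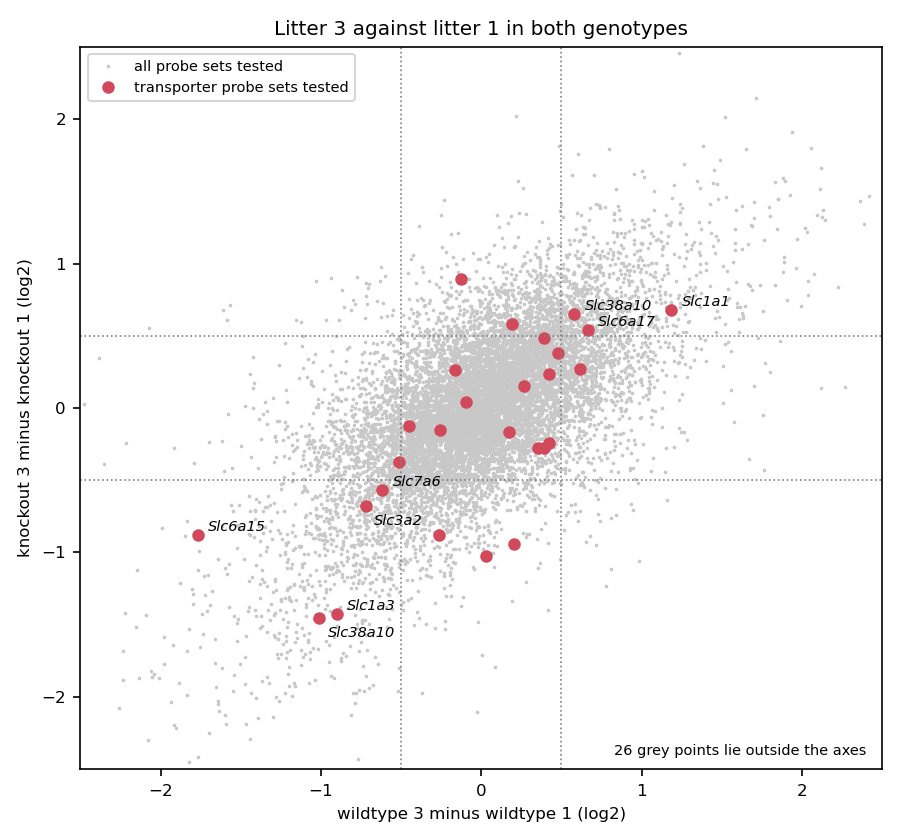
Log2 difference of litter 3 minus litter 1 in wildtype (horizontal) and knockout (vertical) for all 11313 probe sets tested (grey, with 26 outside the axes) and the 27 transporter probe sets (red). Dotted lines mark 0.5 in each direction, and the names stand beside the 8 transporter probe sets past them in both genotypes.

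Probe sets of the same gene did not always move together. For Slc1a3, the difference of litter 3 minus litter 1 was 0.39 in wildtype and 0.49 in knockout for 1452031_at, but -0.90 and -1.42 for 1426341_at and -0.51 and -0.38 for 1426340_at. For Slc38a10, it was 0.58 and 0.65 for 1427294_a_at and -1.01 and -1.45 for 1429979_a_at. Of the 6 transporter genes with more than 1 tested probe set, 2 had probe sets of opposite sign between litters in wildtype, 6 in knockout, and 4 in the comparison of knockout with wildtype. In that comparison 1425415_a_at of Slc1a1 gave -0.15, 1426340_at of Slc1a3 0.08 and 1460541_at of Slc7a6 0.14, opposite to the probe set used above. For Slc38a10, 1427295_at gave -0.06 and 1429979_a_at -0.04, while 1427294_a_at gave 0.07. On knockout 2 the probe sets of a gene parted further: 1426340_at of Slc1a3 read 474, just past the 277 to 471 of the other 5 arrays, whereas 1426341_at read 1.94 against 98.2 to 271. Slc6a8 showed the same split, with 509 for 1417116_at and 11.8 for 1448596_at, which read 116 to 154 elsewhere. For Slc7a6 the differences were -0.62 and -0.57 with 1433467_at and -0.10 and 0.04 with 1460541_at. A statement on the transcripts of Slc1a1, Slc1a3, Slc7a6 or Slc38a10 between litters therefore depends on the probe set read. In knockout the same held for Slc6a8, at 0.58 with 1417116_at and -0.17 with 1448596_at. It also held there for Slc6a9, at 0.27 with 1417636_at and -0.27 with 1431812_a_at.

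**Figure D4:**
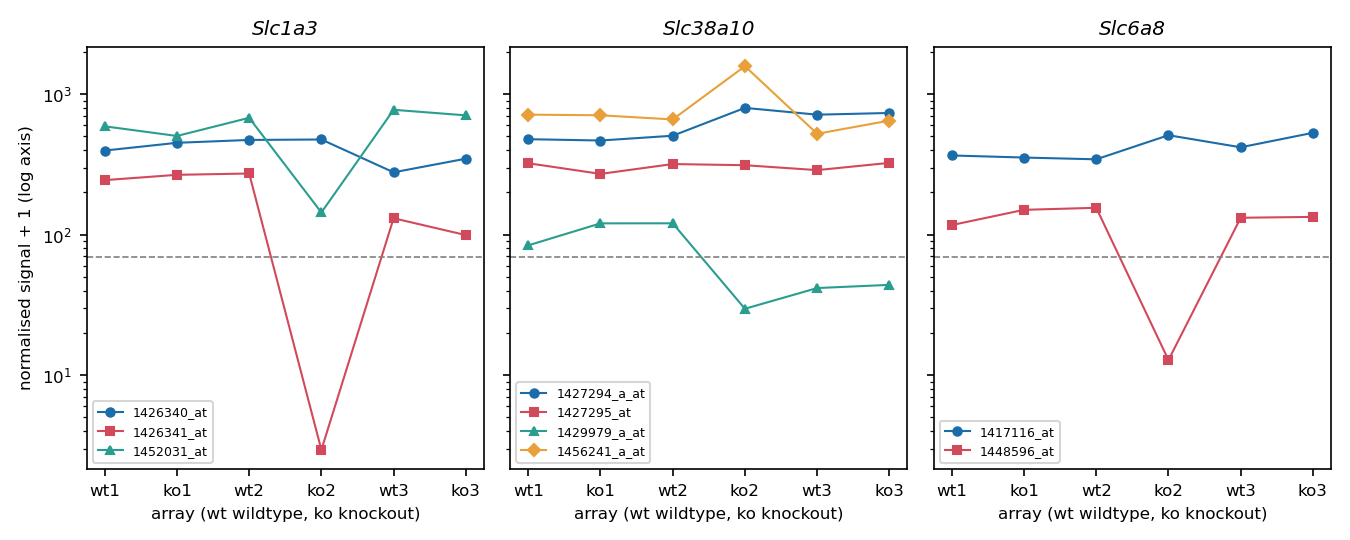
Normalised signal plus 1 (log axis) of each tested probe set of Slc1a3, Slc38a10 and Slc6a8 on the 6 arrays, ordered by litter, with a dashed line at the array median. On knockout 2 (ko2) 1 probe set of Slc1a3 and 1 of Slc6a8 fall far below the line while the others of the gene do not, and on litter 3 the probe sets of Slc1a3 and Slc38a10 move in opposite directions.

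Related genes of the same pathways were read from 2 lists. Of 24 genes for transmitter synthesis, packaging and turnover, 16 were measured and 10 tested, among them the glutamine synthetase gene Glul and the vesicular GABA carrier Slc32a1, and 0 were called, with 4 higher and 6 lower and a median log2 difference of -0.03. All 17 genes of the amino acid response, through which cells answer a shortage of amino acids, were measured. Of these, 11 were tested and 0 called, with 7 higher and 4 lower and a median of 0.08. Atf4, the transcription factor at the head of this response, was at 1301, 1415 and 1518 in wildtype and at 1264 and 1308 in knockout 1 and 3, a log2 difference of -0.13. The lowest unadjusted p of the amino acid response was that of Eif4ebp1, a repressor of translation, at 79.8, 95.5 and 100.4 in wildtype and 114 and 153 in knockout 1 and 3 (log2 difference 0.53, limma adjusted p of 0.999953). In the transmitter list it was that of Gad1, which makes GABA, at 563, 695 and 631 against 494 and 415 (-0.47, limma adjusted p of 0.999953). Among the tested genes of the 2 lists, Eif4ebp1, Aars and Asns lay above every wildtype array on both knockout arrays, and Gad1 below. Over all genes tested, 6.42% lay above and 5.57% below in the same way. Eif4ebp1 and Gad1 were chosen to be given here after their values were seen. The median over all genes tested was 0.02.

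Helix-loop-helix factors bind E-boxes, motifs of the form CANNTG. The window of 250 bases before the start of transcription, from RefSeq on GRCm38.p6, was searched for CAGCTG, which reads the same on both strands. Other E-box forms were not searched for, so the counts below are of CAGCTG alone. Of the 18 tested transporters, 11 had a window in the table, and 1 of their 16 windows held the motif, where 13.0% of all 32851 windows did. It was that of Slc1a6, the gene with the most positive estimate above, which was not called, and it is shown for that reason with the motif in capitals. It lies at chr10:78780246-78780495 on the plus strand, with the first base of the motif 99 bases before the start.
Slc1a6: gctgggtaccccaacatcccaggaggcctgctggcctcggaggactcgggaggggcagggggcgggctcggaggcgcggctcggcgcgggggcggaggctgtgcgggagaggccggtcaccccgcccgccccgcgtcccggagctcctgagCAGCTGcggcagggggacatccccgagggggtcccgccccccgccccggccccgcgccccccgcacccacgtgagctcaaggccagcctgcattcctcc
The window also holds CACGTG, another sequence of the form CANNTG, which was not searched for and stands in lower case. The match is a description of the letters in this window, and binding was not measured.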

How the data were processed

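Total RNA of P4 retinas was labelled and hybridised, 1 array per mouse, and the authors computed signals with MAS 5.0 (the scaling target and build are not given in the sources used here). The deposited values are signal intensities on a linear scale, with array medians from 9.0 to 95.5. Here log2(signal + 1) was quantile-normalised in R 4.3.3 to the mean of 5 arrays, and knockout 2 was mapped to the same quantiles by rank. Levels are 2 to the power of these values minus 1. Probe sets above the median in the mean of the 5 arrays were fitted with limma 3.58.1 (lmFit, eBayes) without a litter term, after a test on simulated data. P-values of this fit measure the spread between these mice, differences between litters included. The 64 control probe sets were left out, and 691 probe sets with several symbols and 1555 without an entry in the platform annotation were not named. All 47 symbols were in the RefSeq table.

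The design text pairs same-numbered mice as littermates. Deviations from the group means correlated within pairs 1, 2 and 3 with r of 0.248, -0.166 and 0.096 over 6 arrays. Without knockout 2 the values were 0.450 and 0.708 for pairs 1 and 3, and 0.608 for wildtype 2 and knockout 1, of different litters. With knockout 2 out, the deviations of knockout 1 and knockout 3 mirror each other, and those of the wildtype arrays cancel out. The values without knockout 2 are therefore linked and are no separate checks of each pair. Named are the genes expressed in all wildtype arrays, carriers that define retinal cells, and the 5 genes per direction with the smallest p. Members, lists and tests were chosen with earlier results of these data known.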

Additional observations from a re-analysis of the deposited data

How the results depend on the processing

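No transporter was called under the 14 alternatives fitted (all 6 arrays, other scalings, filters, pseudocount, limma-trend, litter as a block, and leaving out each of 5 arrays, where a lone knockout array is taken to vary like wildtype). The lowest adjusted p of a transporter in limma was 0.707, without the filter. With litter as a block (the pairing of littermates), 0 probe sets were called with 5 or with 6 arrays, so the block changed no call. The probe sets with an unadjusted p under 0.05 in limma went from 93 to 403 with 5 arrays. That fit rests on the pairs of litters 1 and 3, since wildtype 2 then has no littermate. With 6 arrays and the block the transporters' median was -0.12, as it was with all 6 arrays and no block. Both fits on 6 arrays turned Slc1a1 to -0.21 and Slc1a4 to 0.23. The deposited signals without scaling shifted the median of all genes to -0.26 and that of the transporters to -0.33, with 0 of 18 higher. Relative to all genes the transporters' median was -0.07 with either scaling. Without scaling, Slc1a6 was -0.0264, Slc6a8 -0.0486, Slc38a10 -0.14, Slc7a5 -0.17 and Slc1a1 -0.15, and the medians within pairs 1, 2 and 3 were -0.18, -3.47 and -0.22. With the mean of a gene's probe sets the transporters' median was 0.0082, and with plain _at probe sets Slc38a10 was -0.0611. Leaving out 1 array moved the median between -0.16 and -0.0456 and the estimates of Slc1a1 between -0.24 and 0.48, Slc38a10 between -0.0212 and 0.21, Slc6a8 between -0.0832 and 0.50, Slc7a5 between -0.32 and 0.57, Slc6a6 between -0.87 and 0.16, Slc6a9 between -0.39 and -0.0589, Slc1a6 between 0.11 and 0.49, Slc7a4 between -0.46 and -0.21, Slc1a4 between -0.58 and -0.31, and Slc38a2 between -0.36 and -0.19. The count of 16 expressed genes was 8 above the 75th percentile, 29 above the 25th, and 16 to 18 without 1 array. It was 13 with plain _at probe sets only and 12 with the mean of a gene's probe sets. In litter 2 the 75th percentile centring gave a median of 0.36. The litter 3 counts of 3 above and 5 below became 8 and 12 without a filter and 0 and 1 at a limit of 1, and the upper count was 0 without scaling. The check of pair 3 was 0.096 with 6 arrays and 0.71 with 5. The causes of these changes were not tested. Signals near the floor of the arrays limit what can be said of the 27 genes below the median.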
